A study of Mus musculus with 7 samples.

Results

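The genes described are the heat shock proteins, their co-chaperones and the subunits of the chaperonin CCT, as measured in RAW264.7, a mouse leukaemia line of macrophage character. Members were chosen by symbol (Hspa, Hspb, Hspd, Hspe, Hsph and Hsp90 genes, Dnaja, Dnajb and Dnajc genes, Cct genes and Tcp1, Bag, Fkbp and Pdia genes), leaving out Hspa5 and Dnajb9. The rule found 82 genes among 9999 genes with a probe set of 1 symbol, and the probe set of highest mean signal stood for each gene. By the known site of the protein, 46 act in the cytosol or nucleus, 20 in the endoplasmic reticulum (ER), 8 in mitochondria and 8 elsewhere, such as on vesicles, cilia or the mitochondrial outer membrane.

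Untreated cells labelled RAW GfI1-1, described by the series as Gfi1 knockout cells, gave 4 arrays, and untreated wild-type cells labelled RAW WT gave 3. All were collected at a time labelled T0, and Gfi1 encodes a zinc finger repressor of transcription in blood cells. The labels call the replicates biological but name no clone, guide, edited part of the gene or separate cultures, and the p-values therefore cover no more than the scatter of these arrays, which may be technical. Knockout arrays fell into 2 pairs before any gene was considered: across the probe sets, log2 differences had an SD of 0.164 between knockout replicates 1 and 2, 0.138 between replicates 3 and 4, and 0.524 to 0.539 across the pairs. Wild-type arrays lay 0.128 to 0.189 apart. Between the groups the SD was 0.803 to 0.811 for knockout replicates 1 and 2, and 0.563 to 0.574 for replicates 3 and 4. For replicates 3 and 4 the distance to wild type was thus little more than that to the other knockout pair.

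Every direction given here rests on the labels. Gfi1 itself, read by 1 probe set, stood at log2 4.93, 5.02, 3.97 and 3.97 in the arrays labelled knockout, against 2.66, 2.85 and 2.98 in those labelled wild type, so it did not fall in the knockout and does not check the labels. Whether it lies in the edited part is not given in the sources used here. Macrophage identity markers were all measured, and 7 of 10 fell and 0 rose, beside 21.6% of all genes that fell and 21.5% that rose. Their summed linear signal was 20980 to 22080 in knockout arrays and 29860 to 30130 in wild-type arrays. Csf1r, the receptor for the macrophage growth factor, was lower, at log2 12.26 to 12.33 in knockout arrays, against 12.88 to 12.92 in wild-type arrays (log2 difference -0.60). Mpeg1 and Adgre1 fell most of the listed markers, with log2 differences of -2.03 and -1.51. Fewer cells of a type and less RNA per cell cannot be told apart in bulk RNA. Of 35 markers of other blood, connective and epithelial cells only Pdgfrb was measured, so the presence of other cells was not tested.

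Heat shock proteins bind unfolded stretches of other proteins and use cycles of nucleotide exchange to release them in a state that can fold. J-domain proteins (the DNAJ families) deliver clients to Hsp70 and start its ATP hydrolysis, while exchange factors of the Hsp110 and BAG families reset it. Hsp90 completes the folding of kinases and receptors with the help of co-chaperones such as the large FKBP prolyl isomerases. CCT is a ring complex of related subunits that folds actin and tubulin. Parallel systems serve the ER, where protein disulfide isomerases (PDI) form disulfide bonds, and the mitochondrial matrix. In macrophages, the ER Hsp90 is needed for Toll-like receptors and integrins to reach the surface.

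Differences are given on the log2 scale as the knockout mean minus the wild-type mean, so 1 is a doubling, and a gene was said to rise or fall when limma's adjusted p over all 9999 genes was under 0.05. In the knockout, 20 chaperone genes rose and 16 fell, together 43.9% of 82, beside 43.1% of all 9999 genes, of which 21.5% rose and 21.6% fell. The share of changed chaperone genes was therefore close to the background. Changes of at least 2-fold were made by 4 members (4.88%), beside 7.56% of all genes. Those 4 were Hspa4l and Dnajc22, which rose, and Dnajb14 and Dnajb1, which fell. Knockout and wild-type arrays did not overlap for 49 members (59.8%), beside 54.5% of all genes. In a further fit each knockout pair was a random block, and the 3 wild-type arrays together formed another. Only Hspa4l, Dnajc22 and Dnajb14 then remained past the threshold (3.66% of members, 9.04% of all genes). The other calls rest on counting arrays within these blocks, wild-type ones included, as independent. Either pair alone against wild type gave 47 changed members without knockout replicates 1 and 2 (57.0% of all genes changed) and 58 without replicates 3 and 4 (68.1% of all genes). In the test against a fold of 1.2, 12 members passed (14.6%), beside 17.5% of all genes. When each of the 7 arrays was left out in turn, 22 of the 36 changed members stayed past the threshold in every fit. The same count was not made over all genes, so whether members kept their calls more or less often is not known.

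**Figure D1:**
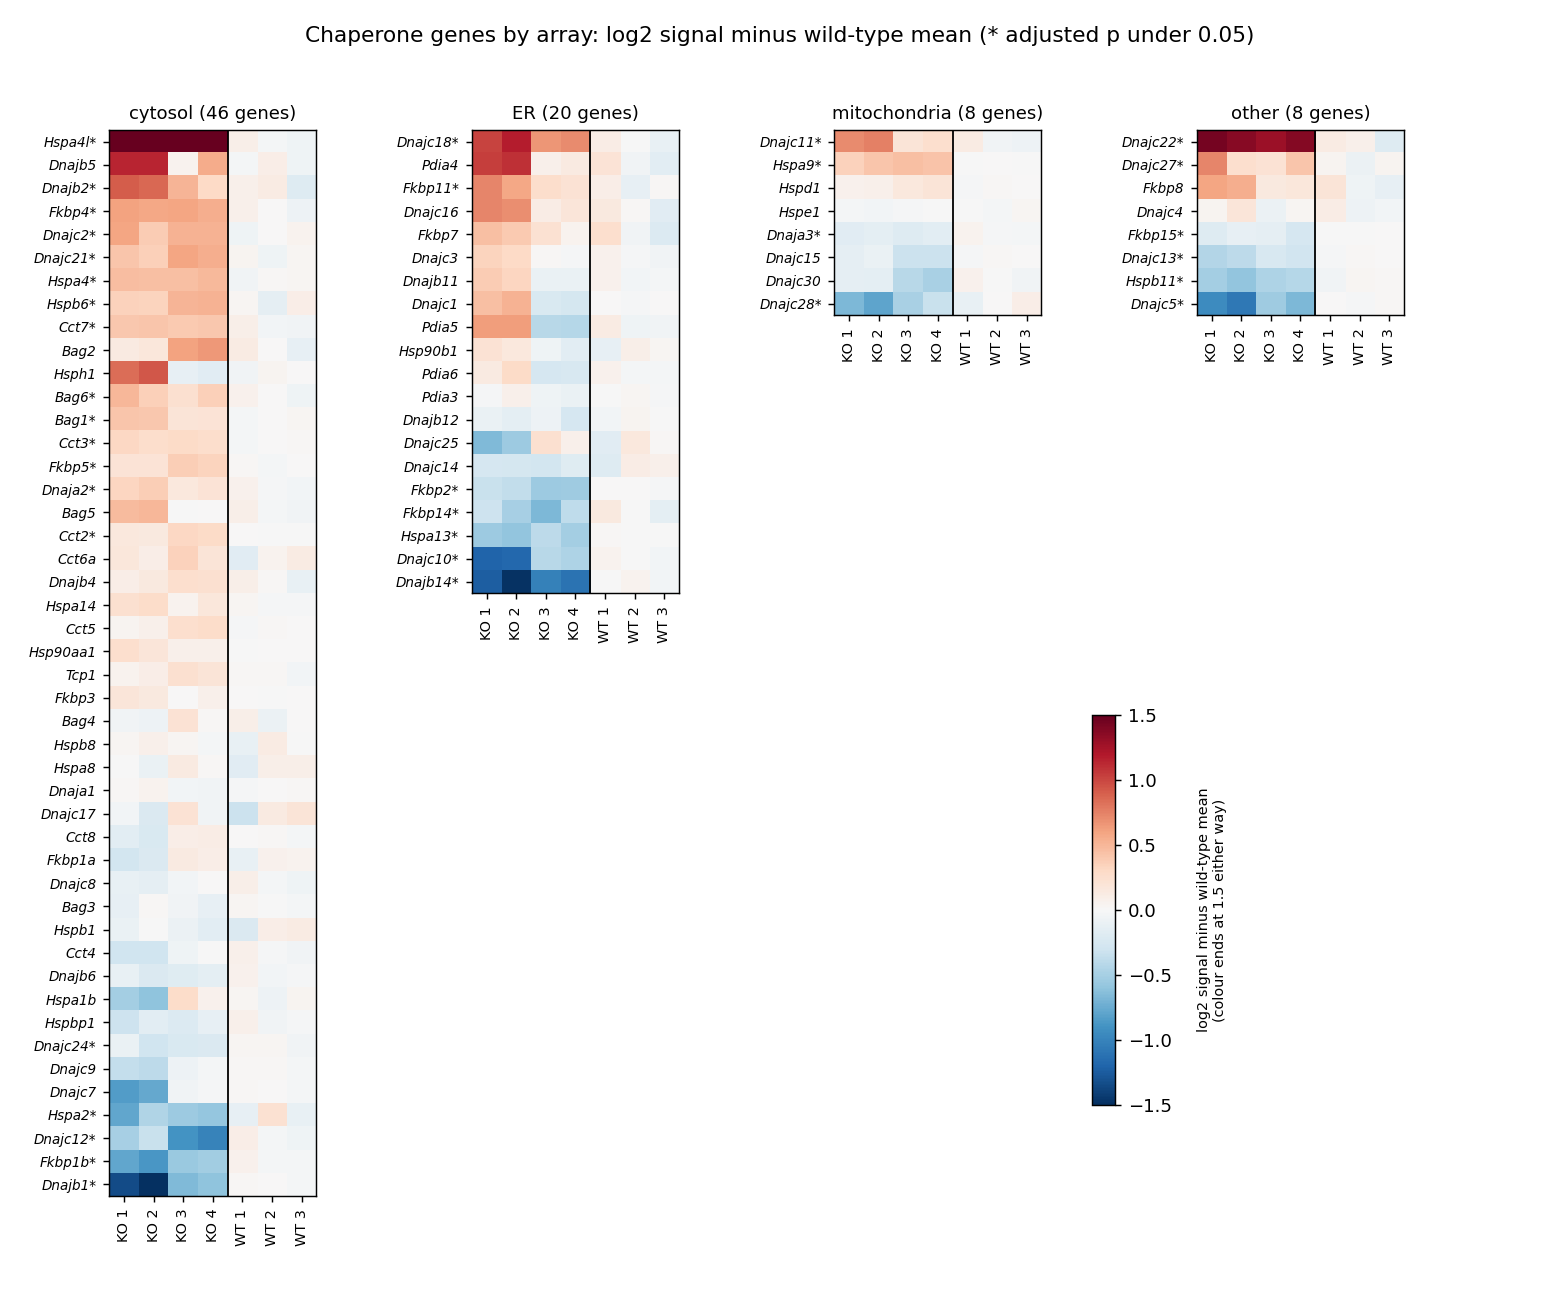
Each row is a chaperone gene and each column an array, knockout replicates 1 to 4 to the left of wild-type replicates 1 to 3, and colour gives the log2 signal minus the wild-type mean. Hspa4l is beyond the end of the colour scale in all 4 knockout arrays, and several ER genes, Pdia5 among them, are red in knockout replicates 1 and 2 and blue in replicates 3 and 4.

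The largest change of the set was in Hspa4l, which encodes an Hsp110-type exchange factor for Hsp70. Its log2 signal was 10.61, 10.59, 9.67 and 9.61 in knockout cells (replicates 1 to 4), against 7.18, 7.06 and 7.03 in wild-type cells (replicates 1 to 3). The difference was 3.03 (SE 0.28, adjusted p = 0.000274), an 8.15-fold rise. Both knockout pairs lay far above wild type, with replicates 1 and 2 on average 0.96 above replicates 3 and 4. All 5 probe sets of the gene rose, by 1.53 to 3.03, and with the pairs as random blocks the adjusted p was 0.00169. The upstream 150 bases of the gene are shown because it led the set while holding none of the letters searched for in heat shock or ER stress promoters, as described with those motifs further on (RefSeq, GRCm38.p6, chr3:40745463-40745612, plus strand, no capitals).
Hspa4l: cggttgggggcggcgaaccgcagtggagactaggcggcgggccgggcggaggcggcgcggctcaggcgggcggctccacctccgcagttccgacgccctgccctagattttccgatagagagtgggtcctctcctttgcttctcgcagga

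The other exchange factors of the Hsp110 group did not move as one. Hspa4, the close relative of Hspa4l, read 10.58, 10.56, 10.56 and 10.59 in knockout cells and 10.06, 10.13 and 10.14 in wild-type cells with its brightest probe set, a rise of 0.46 (SE 0.05, adjusted p = 0.00068). Its remaining 2 probe sets went the other way, with differences of -2.17 (adjusted p over all 17335 probe sets 0.00098) and -3.22 (0.00404), so the direction of the gene is uncertain. One of these dimmer probe sets read 3.39, 2.93, 5.05 and 5.05 in knockout cells, against 7.31, 7.31 and 7.36 in wild-type cells. Hsph1, the stress-inducible Hsp110, split by pair, at 9.68, 9.78, 8.72 and 8.67 in knockout cells and 8.79, 8.89 and 8.86 in wild-type cells. Knockout replicates 1 and 2 lay above and replicates 3 and 4 below all wild-type arrays, and the mean difference of 0.37 did not pass the test (adjusted p = 0.354).

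Among the cytosolic Hsp70 genes, Hspa2 fell and Hspa8, Hspa1b and Hspa14 did not pass the test. Hspa8, the constitutive cytosolic Hsp70, read 12.28, 12.17, 12.41 and 12.30 in knockout cells and 12.10, 12.37 and 12.36 in wild-type cells, a difference of 0.01 (SE 0.09) with overlapping groups. Hspa1b, a stress-inducible Hsp70, read 4.60, 4.51, 5.39 and 5.17 in knockout cells and 5.15, 5.04 and 5.16 in wild-type cells, and did not pass the test (difference -0.20, SE 0.22). Hspa1b signal was thus low in every array, with knockout replicates 1 and 2 under all wild-type arrays and replicates 3 and 4 above them. Hspa2, best known from the testis, fell by 0.59 (SE 0.12, adjusted p = 0.00627), with dim signals of 3.50 to 3.82 in knockout cells and 4.15 to 4.50 in wild-type cells. Hspa14, a ribosome-associated Hsp70, had a difference of 0.18 that did not pass the test (adjusted p = 0.076).

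Choice of probe set bears on further genes. Of 20 members that did not pass and had more than 1 probe set, 11 had another probe set that passed over all 17335. The same share was not counted over all genes, so the 11 are a limit on these members and not a trait of them. Those not described with their other probe sets elsewhere were Bag4 (0.50), Cct4 (-1.49, dim), Dnajc14 (-0.53), Fkbp1a (-0.28), Hsp90aa1 (0.28) and Hspa8 (0.46, dim), by the difference of the passing probe set.

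**Figure D2:**
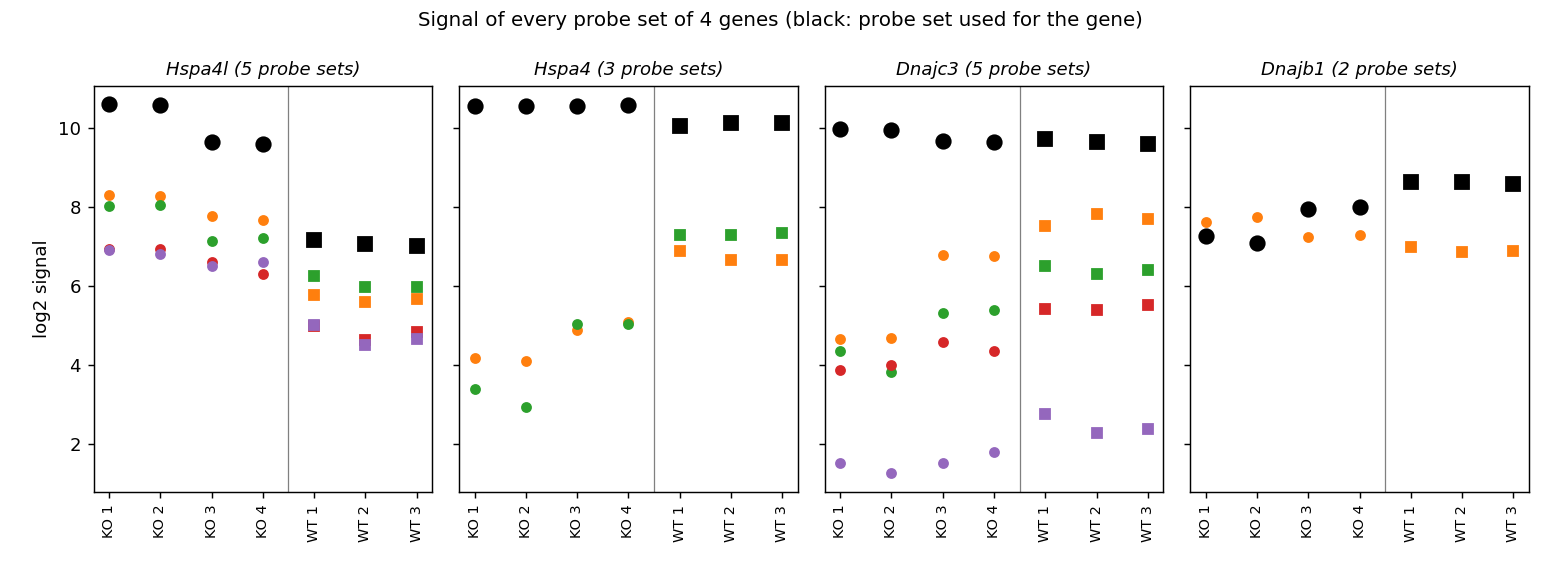
Log2 signal of every probe set of Hspa4l, Hspa4, Dnajc3 and Dnajb1 in each knockout array (circles, left) and wild-type array (squares, right), with the probe set used for the gene in black and each other probe set in a colour of its own. All 5 Hspa4l probe sets are higher in knockout, whereas the remaining probe sets of Hspa4 (differences -2.17 and -3.22) and of Dnajc3 (-0.96 to -1.95) are lower, unlike the black ones.

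Among cytosolic J-domain partners of Hsp70 of types A and B, Dnajb1, Dnajb2 and Dnaja2 passed the test, and several genes differed by probe set. Dnajb1, the classical Hsp40, read 7.28, 7.09, 7.96 and 8.01 in knockout cells and 8.64, 8.63 and 8.59 in wild-type cells, a difference of -1.04 (SE 0.24, adjusted p = 0.0118), or 2.05-fold lower. Every knockout array lay below every wild-type array, but a second Dnajb1 probe set rose by 0.56 (adjusted p over probe sets 0.0164), and with the pairs as random blocks the fall did not pass the test (adjusted p = 0.067), so its direction is uncertain. Dnajb2, a neuronally enriched J-domain protein that binds ubiquitin, rose by 0.64 (SE 0.17, adjusted p = 0.019), a call lost without wild-type replicate 3 (adjusted p = 0.0757). Dnaja2, a J-domain partner of Hspa8, rose by 0.27 (SE 0.07, adjusted p = 0.0229), with 10.68 to 10.88 in knockout cells and 10.47 to 10.58 in wild-type cells. The Dnaja2 call was kept in only 3 of the 7 fits that left out an array (adjusted p up to 0.089), and not with the mean of its probe sets (0.06, adjusted p = 0.607). Its counterpart Dnaja1 differed by -0.0040 (SE 0.06) with its brightest probe set, while the dimmer ones differed by -0.88 (adjusted p over probe sets 0.0115) and -0.76 (0.0726). Dnajb4 (0.19), Dnajb5 (0.72) and Dnajb6 (-0.17), 3 further cytosolic type B J-domain proteins, did not pass the test with their brightest probe sets. A second Dnajb4 probe set rose by 1.73 (adjusted p over probe sets 0.000657), and the mean of the Dnajb6 probe sets went the other way from the brightest one (0.52, adjusted p = 0.0145). Dnajb5 was the most spread of them, with knockout values of 5.74, 5.74, 4.66 and 5.16 and wild-type values of 4.57, 4.70 and 4.54.

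Dnajc2 and Dnajc21, both tied to the ribosome, rose. Dnajc2, which docks Hsp70 at the exit of the ribosome, read 10.64, 10.42, 10.57 and 10.56 in knockout cells and 9.98, 10.05 and 10.10 in wild-type cells, a rise of 0.50 (SE 0.07, adjusted p = 0.00162). Dnajc21, which takes part in maturation of the large ribosomal subunit, rose by 0.48 (SE 0.08, adjusted p = 0.00268), with 9.42 to 9.65 in knockout cells and 8.99 to 9.09 in wild-type cells. The groups stood apart for both genes, each of their probe sets passed in the same direction, and both calls held without any single array. Other nuclear and cytosolic DNAJC genes fell or did not pass. Dnajc12, linked to folding of aromatic amino acid hydroxylases, fell by 0.68 (SE 0.17, adjusted p = 0.0156), a call lost without wild-type replicate 1 (adjusted p = 0.061), and Dnajc24, a diphthamide synthesis protein, fell by 0.21 (adjusted p = 0.0415), a call kept in only 1 of the 7 fits that left out an array. Dnajc7, Dnajc8, Dnajc9 and Dnajc17 had differences of -0.42, -0.07, -0.21 and -0.02 that did not pass the test.

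All 8 CCT subunits were measured, and Cct7, Cct3 and Cct2 rose while 5 subunits did not pass the test and 0 fell. Called subunits were thus 37.5%, beside 43.1% of all genes, and 0 passed with the knockout pairs as random blocks. Cct7 read 11.50, 11.52, 11.50 and 11.51 in knockout cells and 11.19, 11.06 and 11.05 in wild-type cells, a rise of 0.40 (SE 0.06, adjusted p = 0.00187). Cct3 read 11.83, 11.79, 11.81 and 11.79 in knockout cells, against 11.49, 11.53 and 11.54 in wild-type cells, a rise of 0.28 (SE 0.05, adjusted p = 0.00503). The knockout values of both subunits fell within a narrow band across the pairs. Cct2 rose by 0.22 (SE 0.07, adjusted p = 0.0311), with knockout replicates 3 and 4 at 12.31 and 12.29, replicates 1 and 2 at 12.16 and 12.14, and wild-type arrays at 11.99 to 12.01. The Cct2 call was kept in only 2 of the 7 fits that left out an array. Tcp1 (0.14), Cct5 (0.16) and Cct6a (0.20) had positive differences that did not pass, Cct4 (-0.17) and Cct8 (-0.04) negative ones, and for Tcp1 and Cct5 the knockout arrays were all above the wild-type arrays. The median difference over the subunits was 0.181, beside -0.006 over all genes, and in single knockout arrays against the wild-type mean it was 0.102, 0.099, 0.270 and 0.231.

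Listed partners of CCT gave a mixed picture. Of 14 listed prefoldin, phosducin-like and tubulin cofactor genes, all measured, 4 rose and 3 fell, so 7 of 14 were called beside 43.1% of all genes, and 0 passed with the knockout pairs as random blocks. Pfdn6 and Pfdn1, subunits of the prefoldin complex that delivers actin and tubulin, rose by 0.58 (SE 0.07, adjusted p = 0.00066) and 0.49 (SE 0.11, adjusted p = 0.0099). Tbce, a tubulin cofactor, rose by 0.46, and Tbcc, another, fell by 0.82 (adjusted p = 0.0227), a call kept in 3 of the 7 fits that left out an array.

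**Figure D3:**
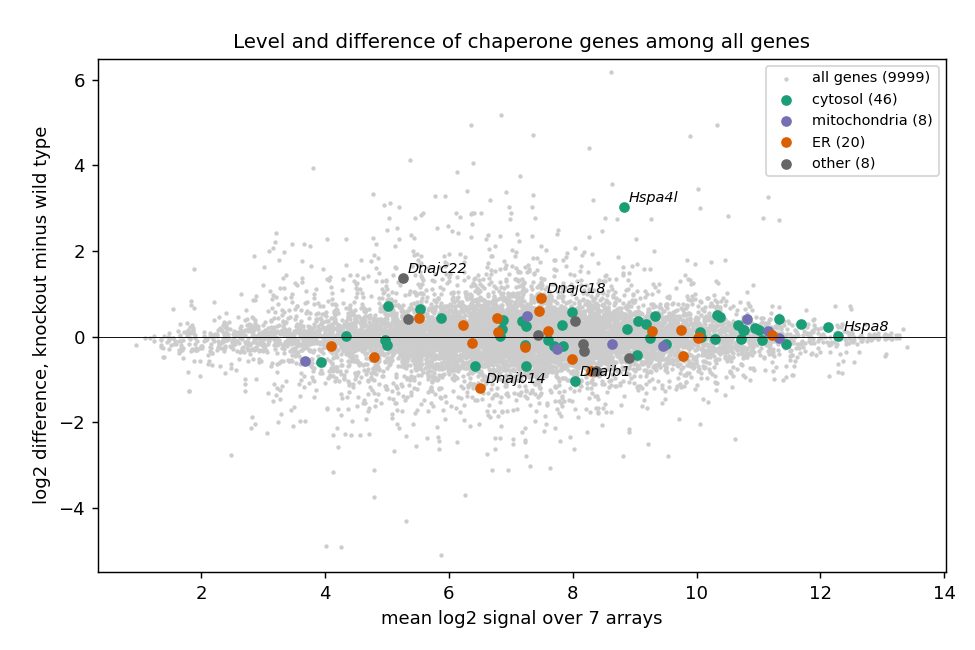
Mean log2 signal over the 7 arrays (horizontal) against the log2 difference, knockout minus wild type (vertical), for all genes in grey and chaperone genes coloured by site. Hspa4l stands at a difference of 3.03, and the chaperone genes at a mean signal of 10 or more lie between -0.17 and 0.50.

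Chaperone genes with a mean log2 signal of 10 or more, a division chosen after the values were seen, were 23 in number. Of these 7 rose, 0 fell and the median absolute difference was 0.144, whereas of 808 genes in all at that signal 165 rose, 180 fell and the median absolute difference was 0.205. Under that signal 13 of 59 members rose and 16 fell, with a median absolute difference of 0.361, beside 0.285 over the 9191 genes there. A probe set's signal also depends on its probes, so this is a division of signals and not of transcript amounts.

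Hsp90 and its isomerase partners were next in the cytosol. Hsp90aa1, the inducible cytosolic Hsp90, read 10.92, 10.85, 10.74 and 10.75 in knockout cells and 10.65, 10.67 and 10.67 in wild-type cells. Groups did not overlap, but the difference of 0.15 (SE 0.07) did not pass the test (adjusted p = 0.111). Fkbp4, the FKBP52 isomerase of Hsp90 and steroid receptor complexes, read 8.26, 8.24, 8.25 and 8.21 in knockout cells and 7.73, 7.67 and 7.58 in wild-type cells, a rise of 0.58 (SE 0.06, adjusted p = 0.000443), while a dimmer probe set differed by -0.20 and did not pass (adjusted p over probe sets 0.0824). Its relative and functional rival Fkbp5 rose by 0.28 (SE 0.07, adjusted p = 0.0146), a call lost without wild-type replicate 2 or wild-type replicate 3 (adjusted p up to 0.0659). Fkbp1b, a ryanodine receptor partner, fell by 0.68 (SE 0.10, adjusted p = 0.00188), with 5.94 to 6.29 in knockout cells and 6.77 to 6.87 in wild-type cells. Fkbp1a, the rapamycin-binding FKBP12, had a difference of -0.06 and the nuclear Fkbp3 one of 0.10, and neither passed the test.

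Of 18 listed partners of Hsp70 and Hsp90 in the cytosol 14 were measured, of which 2 rose and 1 fell (21.4%, beside 43.1% of all genes), and 0 passed with the knockout pairs as random blocks. Stip1, the adaptor that links Hsp70 to Hsp90, rose by 0.40 (SE 0.09, adjusted p = 0.00843), and the Hsp90-bound phosphatase gene Ppp5c rose by 0.63 (SE 0.11, adjusted p = 0.0039). St13, which stabilises the ADP state of Hsp70, read 8.61, 8.64, 9.67 and 9.54 in knockout cells and 10.13, 10.18 and 10.15 in wild-type cells, a fall (difference -1.04, SE 0.29, adjusted p = 0.0232). The St13 difference was thus larger in knockout replicates 1 and 2 than in replicates 3 and 4, and it did not pass without any 1 wild-type array (adjusted p up to 0.0724) or with the mean of its probe sets (-0.36). Sugt1, a kinetochore and immune receptor co-chaperone, did not pass the test (-0.10), but the mean of its probe sets did (-0.69, adjusted p = 0.00762). Of 4 listed heat shock factor genes 2 were measured, and Hsf2 rose by 0.63 (adjusted p = 0.0033) at signals among the lowest 5% of genes in both groups, while Hsbp1, which binds heat shock factor, had a difference of 0.10 that did not pass.

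Of the 6 BAG family exchange factors 2 rose and 0 fell (33.3%, beside 43.1% of all genes). Bag1, which couples Hsp70 to the proteasome, rose by 0.31 (SE 0.08, adjusted p = 0.0202), with 9.42, 9.41, 9.20 and 9.21 in knockout cells and 8.98, 9.01 and 9.03 in wild-type cells. Without any 1 of the 3 wild-type arrays the Bag1 rise did not pass, with an adjusted p of up to 0.0688. Bag6, which escorts tail-anchored and mislocalised membrane proteins, rose by 0.36 (SE 0.08, adjusted p = 0.00844) and passed in all such fits. Bag2 (0.39), Bag3 (-0.07), Bag4 (0.03) and Bag5 (0.24) did not pass the test, and the 2 pairs differed for Bag2, at 6.78 and 6.82 in knockout replicates 1 and 2, 7.26 and 7.31 in replicates 3 and 4, and 6.53 to 6.77 in wild-type cells.

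Of the 4 small heat shock protein genes and Hspbp1, 1 rose and 1 fell, so 2 of 5 were called, beside 43.1% of all genes. Small heat shock proteins hold unfolded clients without ATP. Hspb6 rose by 0.43 (SE 0.09, adjusted p = 0.00683), with dim signals of 5.97 to 6.15 in knockout cells and 5.50 to 5.74 in wild-type cells. Hspb11, a part of the intraflagellar transport machinery rather than a classical chaperone, fell by 0.50 (SE 0.06, adjusted p = 0.00108). Hspb1 (-0.09), Hspb8 (0.03) and the Hsp70 exchange factor gene Hspbp1 (-0.20) did not pass.

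Over the cytosolic members 14 rose and 5 fell of 46 (41.3%, beside 43.1% of all genes, 21.5% up and 21.6% down), and the median difference was 0.146. In each knockout array against the wild-type mean, the cytosolic median was positive, at 0.075, 0.099, 0.135 and 0.092. ER members gave 2 rises and 5 falls of 20 (35.0%) with a median of 0.010, and here the arrays divided: replicates 1 and 2 of the knockout had ER medians of 0.178 and 0.218, but replicates 3 and 4 had -0.089 and -0.166. Mitochondrial members gave 2 rises and 2 falls of 8, with a median of -0.095 and single-array medians from -0.105 to -0.075. The same medians over all genes lay between -0.010 and 0.006. Whether the sites differ from each other was not tested, because members are not replicates.

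**Figure D4:**
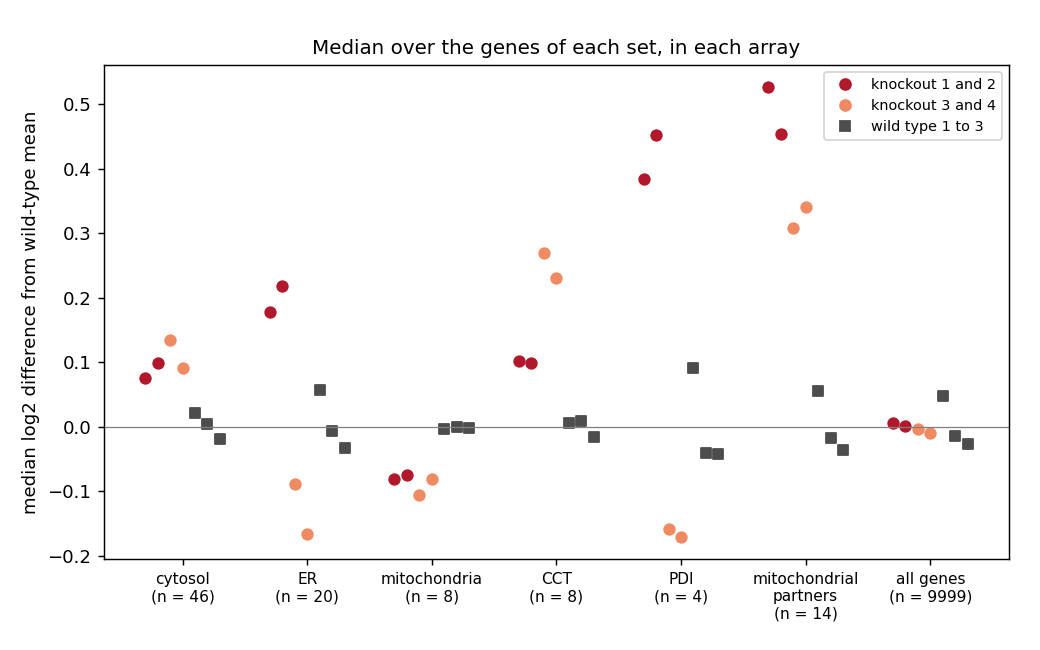
Median over the members of each site, the CCT and PDI families, the mitochondrial partners and all genes of the log2 signal minus the wild-type mean, with 1 point per array (knockout replicates 1 and 2 dark red, knockout replicates 3 and 4 orange, wild type grey squares). ER genes and PDI genes are above 0 in knockout replicates 1 and 2 and below 0 in replicates 3 and 4, while the CCT median is above 0 in all 4, from 0.099 to 0.270.

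In the ER, 2 members rose and 5 fell of 20 (35.0%, beside 43.1% of all genes, 21.5% up and 21.6% down). J-domain and FKBP genes were among both the rises and the falls. Without knockout replicates 3 and 4, 10 rose and 6 fell, where 68.1% of all genes were called. With the pairs as random blocks 0 rose and 1 fell. Dnajb14, an ER membrane J-domain protein of the degradation pathway, read 5.97, 5.72, 6.19 and 6.09 in knockout cells and 7.20, 7.25 and 7.15 in wild-type cells, a difference of -1.21 (SE 0.11, adjusted p = 0.000279), or 2.31-fold lower. Its other probe set differed by -2.31 and the call held with the pairs as random blocks (adjusted p = 0.0173). Dnajb12, its relative in the same membrane, had a difference of -0.14 that did not pass the test, although its second probe set rose by 0.49 (adjusted p over probe sets 0.0373). Dnajc18, the third of this type, went the other way at 8.0, 8.16, 7.64 and 7.69 in knockout cells and 7.09, 6.97 and 6.87 in wild-type cells, a rise of 0.89 (SE 0.14, adjusted p = 0.0023). A second, dimmer Dnajc18 probe set had a difference of -0.38 (adjusted p over probe sets 0.042), so its direction is uncertain.

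Dnajc10, a J-domain reductase that opens disulfides for degradation, read 7.57, 7.58, 8.35 and 8.30 in knockout cells and 8.81, 8.75 and 8.72 in wild-type cells, a difference of -0.81 (SE 0.22, adjusted p = 0.0217). Other Dnajc10 probe sets, 2 in number, differed by -0.17 and -0.06 and did not pass. With the brightest one all knockout arrays were lower, those of replicates 1 and 2 by more, and without any 1 wild-type array the fall did not pass (adjusted p up to 0.0729). Hspa13, an ER-associated Hsp70-like ATPase, fell by 0.51 (SE 0.07, adjusted p = 0.00111), with 7.69 to 7.89 in knockout cells and 8.28 to 8.30 in wild-type cells. Its dimmer probe sets differed by -0.36 and -0.11 and did not pass (adjusted p over probe sets 0.0562 and 0.555). Of the ER isomerases, Fkbp2 read 9.70, 9.66, 9.49 and 9.50 in knockout cells and 10.04, 10.04 and 10.01 in wild-type cells, a fall of 0.45 (SE 0.07, adjusted p = 0.00324). Fkbp14, linked to collagen folding, fell by 0.47 (adjusted p = 0.0129), Fkbp11, an isomerase of secretory cells, rose by 0.45 (SE 0.14, adjusted p = 0.0389), and Fkbp7 did not pass (0.28). The Fkbp14 call was lost without wild-type replicate 1 (adjusted p = 0.0503), and the Fkbp11 call in 5 of the 7 fits that left out an array.

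None of the 4 protein disulfide isomerase genes passed the test, and for 2 of the 4 the knockout pairs lay on opposite sides of wild type. Pdia4 read 8.16, 8.22, 7.20 and 7.26 in knockout cells and 7.33, 7.08 and 6.97 in wild-type cells. Pdia5 read 7.37, 7.36, 6.32 and 6.31 in knockout cells and 6.85, 6.67 and 6.68 in wild-type cells. Pdia6 read 10.18, 10.33, 9.79 and 9.81 in knockout cells and 10.11, 10.01 and 10.01 in wild-type cells. For Pdia5 and Pdia6, knockout replicates 1 and 2 lay above every wild-type array and replicates 3 and 4 below every one, while for Pdia4 only replicates 1 and 2 left the wild-type range. Pdia3, the calnexin-linked isomerase, varied less, at 10.03, 10.13, 9.98 and 9.94 in knockout cells and 10.03 to 10.07 in wild-type cells. Over the 4 PDI genes the median difference was 0.384 and 0.453 for knockout replicates 1 and 2, but -0.158 and -0.170 for replicates 3 and 4.

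Such opposite placement of the pairs around wild type was found in 4 of 20 ER members, 5 of 46 cytosolic members and 865 of all genes (8.65%). In all 4 ER genes replicates 1 and 2 were the high pair with the brightest probe set. Dnajc1, an ER membrane J-domain protein at the ribosome, and Dnajb11, a J-domain partner of the ER Hsp70, were the others. Dnajb11 read 9.59, 9.53, 9.11 and 9.12 in knockout cells and 9.18 to 9.28 in wild-type cells. The dimmest Dnajc1 probe set was placed the other way, at 4.35, 4.25, 4.94 and 4.93 in knockout cells and 4.82 to 4.85 in wild-type cells. In the remaining Dnajc1 probe set, knockout replicates 3 and 4 were not below wild type, so the pattern of Dnajc1 is uncertain. Hsp90b1, the ER Hsp90, read 11.41, 11.35, 11.13 and 11.04 in knockout cells and 11.07, 11.28 and 11.22 in wild-type cells, a difference of 0.04 (SE 0.11). Dnajc3, an ER J-domain protein that inhibits the kinase PERK, read 9.99, 9.96, 9.68 and 9.65 in knockout cells and 9.73, 9.65 and 9.61 in wild-type cells with its brightest probe set, which did not pass (0.16). Its 4 other probe sets were lower in knockout by their differences of -0.96 to -1.95, so the direction of Dnajc3 is uncertain. Dnajc14, Dnajc16 and Dnajc25, in the ER membrane, had differences of -0.24, 0.43 and -0.22 that did not pass.

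**Figure D5:**
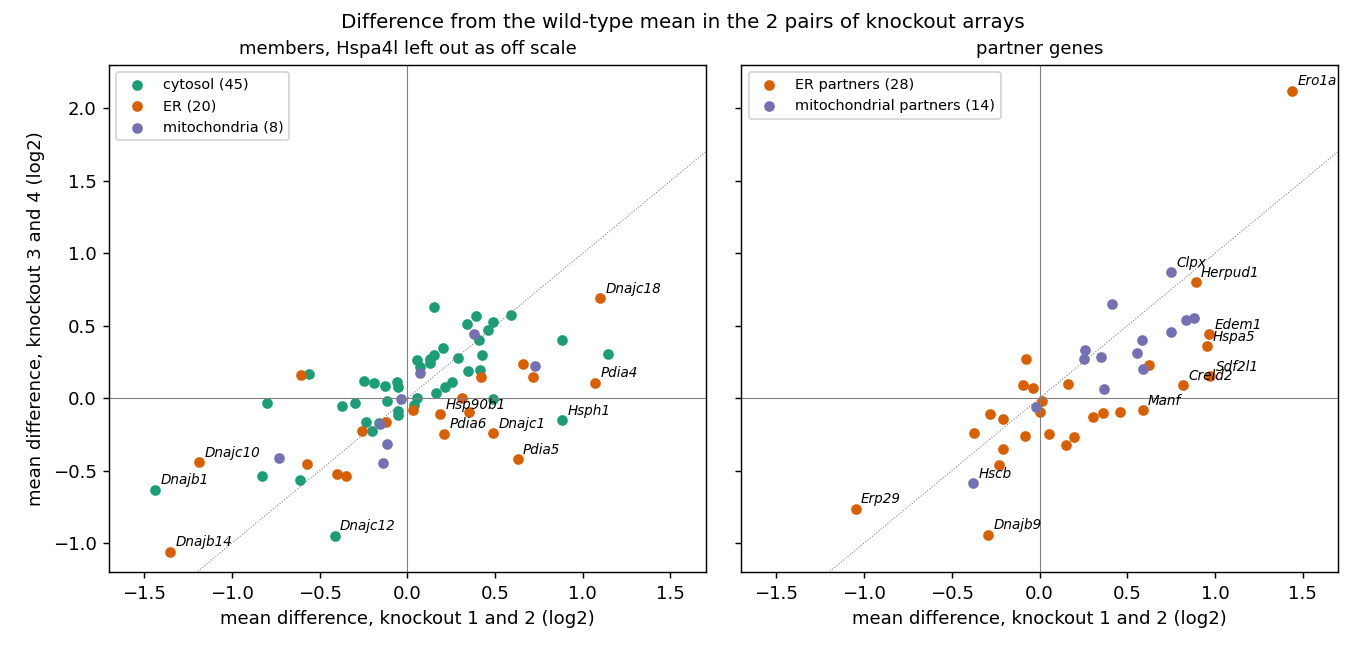
For chaperone genes of the 3 sites (left, Hspa4l left out as off scale) and the listed ER and mitochondrial partners (right), the mean log2 difference from wild type in knockout replicates 1 and 2 (horizontal) against that in replicates 3 and 4 (vertical), with the dotted line marking equal values. ER genes lie mostly below the line, 15 of 20 being higher in replicates 1 and 2. The same holds for 21 of 46 cytosolic genes, Hspa4l included, and for 5311 of all 9999 genes.

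Partners in the ER showed both patterns. Of 28 measured genes of a list of 30 symbols, aliases included, 5 rose and 6 fell (39.3%, beside 43.1% of all genes). With the knockout pairs as random blocks 3 passed, Ero1a and Herpud1 higher and Erp29 lower, and Hspa5, Dnajb9 and Edem1 did not (adjusted p of 0.104, 0.163 and 0.0684). Hspa5, the ER Hsp70 left out by the rule, read 13.08, 13.07, 12.48 and 12.47 in knockout cells and 12.09, 12.14 and 12.12 in wild-type cells, a rise of 0.66 (SE 0.18, adjusted p = 0.0216). Dnajb9, its J-domain partner, had a difference of -0.62 (SE 0.19, adjusted p = 0.0374), with 7.51, 7.46, 6.90 and 6.78 in knockout cells and 7.83, 7.76 and 7.75 in wild-type cells. Replicates 1 and 2 were thus the higher knockout pair for both genes. The Hspa5 call was lost without any 1 wild-type array (adjusted p up to 0.0698), and the Dnajb9 call was kept in 2 of the 7 fits that left out an array. Ero1a, the oxidase that recharges PDI, rose by 1.78 (SE 0.20, adjusted p = 0.000648) and read 10.85, 10.90, 11.58 and 11.55 in knockout cells, against 9.34 to 9.50 in wild-type cells. Herpud1, a degradation factor, rose by 0.85 and the mannosidase-like Edem1 by 0.71 (0.11 and not past the test with the mean of its probe sets), while Erp29, a lumenal PDI-fold protein, fell by 0.91 (SE 0.10, adjusted p = 0.000512).

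In mitochondria, the matrix Hsp70 rose and its co-chaperones did not follow as one. Hspa9, or mortalin, read between 10.92 and 11.03 in the 4 knockout arrays and between 10.57 and 10.59 in the 3 wild-type arrays, a rise of 0.41 (SE 0.06, adjusted p = 0.00139) that held in every fit leaving out an array. The other 2 Hspa9 probe sets both differed by 0.14 and did not pass, and the mean of the probe sets did not pass either (0.23, adjusted p = 0.0852). The chaperonin pair did not pass: Hspd1 (Hsp60) had a difference of 0.12 (SE 0.06, adjusted p = 0.134) with all knockout arrays above wild type, and Hspe1 (Hsp10) one of -0.02 (SE 0.05). Dnaja3, the J-domain partner of Hspa9, fell by 0.17 (adjusted p = 0.0433), a call kept in 0 of the 7 fits that left out an array. Dnajc11, a protein of the cristae organising system, rose by 0.48 (SE 0.16, adjusted p = 0.0483), a call kept in 2 of those 7 fits. With the mean of their probe sets in place of the brightest one, the differences of Dnaja3 and Dnajc11 were 0.23 and -0.10 and neither passed. Dnajc28 fell by 0.57 (adjusted p = 0.00781), with a knockout mean among the lowest 5% of genes (3.21 to 3.67 in knockout cells, 3.90 to 4.11 in wild-type cells). Dnajc15 (-0.22) and Dnajc30 (-0.30), both of the inner membrane, did not pass although their groups did not overlap.

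Most of the listed mitochondrial partners rose. Of 14 measured genes of 15 listed symbols, 11 rose and 1 fell (85.7%), beside the 43.1% of all genes, with a median difference of 0.415. The list was chosen with earlier results of these data known, so its share is a description and not a test. Clpx and Clpp, the ATPase and the protease of the matrix Clp complex, rose by 0.81 (SE 0.07, adjusted p = 0.000264) and 0.69 (SE 0.11, adjusted p = 0.0027). Grpel2, an exchange factor of Hspa9, read 8.91, 9.06, 8.69 and 8.62 in knockout cells and 8.18, 8.10 and 8.02 in wild-type cells, a rise of 0.72 (SE 0.12, adjusted p = 0.00268). The inner membrane protease gene Yme1l1 rose by 0.60 with its brightest probe set, but the mean of its probe sets differed by -0.25, and the import channel gene Timm23 rose by 0.29. With the pairs as random blocks 1 of these partners passed, Clpx (adjusted p = 0.0331).

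Members placed at other sites included the second largest rise. Dnajc22, a multi-pass membrane J-domain protein, read 5.91, 5.84, 5.76 and 5.85 in knockout cells and 4.59, 4.55 and 4.28 in wild-type cells, a rise of 1.37 (SE 0.09, adjusted p = 7.22e-05). It was dim in all arrays, the pairs differed by 0.07 on average, and the adjusted p with the pairs as random blocks was 0.0161. Dnajc5, the cysteine string protein of secretory vesicles, had a difference of -0.80 (SE 0.13, adjusted p = 0.00296), with 7.77 to 8.31 in knockout cells and 8.82 to 8.86 in wild-type cells. Of its 5 probe sets 4 were lower and 1 was higher (1.37, adjusted p over probe sets 0.0222), so its direction is uncertain too. Dnajc13, an endosomal coat regulator, fell by 0.34 (SE 0.07, adjusted p = 0.0067), the endosomal Fkbp15 fell by 0.17 (adjusted p = 0.0471), a call kept in 0 of the 7 fits that left out an array, and Dnajc27, a Rab-like GTPase, rose by 0.41 (adjusted p = 0.0404), a call kept in 3 of them. Fkbp8, of the mitochondrial outer membrane, and Dnajc4 did not pass (0.36 and 0.04).

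Promoters were searched because heat shock and ER stress responses act through known DNA elements. RefSeq windows of 250 bases before to 50 after a start site (GRCm38.p6) were held for 69 of the 82 members. The heat shock element core GAANNTTC, searched on both strands, was in the windows of 13 members (18.8%), against 6.79% of 8175 genes. By site these were 10 of 40 cytosolic members, 0 of 18 ER members and 2 of 5 mitochondrial members. Of the 13, Cct2, Dnajc27, Fkbp4 and Hspb6 rose and 0 fell, and 42.5% of all genes with the core were called in either direction. The longer form, the core GAANNTTC followed by NNGAA, whose reverse complement is the other phase of the element, was held by Dnajb6, Hspd1, Hspe1 and Hsph1 (5.80%, against 0.563% of all genes), none of which passed the test. Shown are Fkbp4, the member with the core that rose most by log2 difference (chr6:128438657-128438856, minus strand), Dnajb6 with the longer form (chr5:29735748-29735897, plus strand) and Hspd1 with its run of alternating units (chr1:55087933-55088132, minus strand), with element letters in capitals.
Fkbp4: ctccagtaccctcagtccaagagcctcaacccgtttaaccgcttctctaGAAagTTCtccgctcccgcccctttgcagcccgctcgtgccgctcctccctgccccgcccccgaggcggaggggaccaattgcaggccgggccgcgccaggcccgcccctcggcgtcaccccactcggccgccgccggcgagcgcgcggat
Dnajb6: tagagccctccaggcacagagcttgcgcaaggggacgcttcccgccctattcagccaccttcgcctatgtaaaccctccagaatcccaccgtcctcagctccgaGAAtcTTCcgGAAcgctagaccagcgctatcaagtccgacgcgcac
Hspd1: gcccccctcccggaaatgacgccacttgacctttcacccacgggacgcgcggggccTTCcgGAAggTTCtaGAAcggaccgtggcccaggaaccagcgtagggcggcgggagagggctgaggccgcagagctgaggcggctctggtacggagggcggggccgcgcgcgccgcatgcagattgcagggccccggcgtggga

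Hspd1 and Hspe1 are neighbours on opposite strands and their windows overlap, so they hold the same element letters. Both genes read between 11.07 and 11.38 in all 7 arrays, and neither passed the test.

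The ER stress element, CCAAT and CCACG with 9 bases of any kind between them, searched on both strands, was held by 3 of 18 ER members and 0 of 40 cytosolic members, which is 4.35% of members against 0.159% of all genes. Those 3 were Hsp90b1, Pdia6 and Dnajc3. With the brightest probe sets, knockout replicates 1 and 2 were higher than replicates 3 and 4 for each, by 0.30, 0.45 and 0.31. None of these probe sets passed the test against wild type, and 7.69% of all genes with the element were called. Other Dnajc3 probe sets fell (-0.96 to -1.95), and the mean of its probe sets passed as a fall (-1.14, adjusted p = 0.0066). In the Dnajc3 probe set that fell by 1.95, replicates 1 and 2 (4.67 and 4.69) lay below replicates 3 and 4 (6.80 and 6.76). The upstream stretches of Hsp90b1 (chr10:86705445-86705694, minus strand), Pdia6 (chr12:17266439-17266588, plus strand) and Dnajc3 (chr14:118937782-118937931, plus strand) are shown with the fixed letters of the element in capitals, and Hsp90b1 holds a copy on each strand.
Hsp90b1: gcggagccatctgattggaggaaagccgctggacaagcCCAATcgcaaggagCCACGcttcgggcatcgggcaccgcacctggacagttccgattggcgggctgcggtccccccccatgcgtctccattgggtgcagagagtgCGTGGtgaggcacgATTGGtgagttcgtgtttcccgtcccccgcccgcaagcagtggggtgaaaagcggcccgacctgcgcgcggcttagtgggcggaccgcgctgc
Pdia6: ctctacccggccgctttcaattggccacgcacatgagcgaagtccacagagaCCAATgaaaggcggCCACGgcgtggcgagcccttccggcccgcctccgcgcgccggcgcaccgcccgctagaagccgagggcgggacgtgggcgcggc
Dnajc3: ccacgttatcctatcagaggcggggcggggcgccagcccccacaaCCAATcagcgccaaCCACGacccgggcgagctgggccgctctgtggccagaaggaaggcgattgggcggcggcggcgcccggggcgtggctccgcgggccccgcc

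Shorter letters were searched as well. CCACG alone, the other part of the ER stress element, was in 48 members (69.6%, against 53.1% of all genes), among them 15 of 18 ER members. The core TGACGTGG of another ER stress element was in 2 members, Dnajc25 and Fkbp1b (2.90%, against 1.04% of all genes). The box CACGTG was in 7 members (10.1%, against 12.1%), and CCAAT, a part of the ER stress element, was in 31 (44.9%, against 43.5%). A match is a description of letters and says nothing of a factor's binding in these cells.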

How the data were processed

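Total RNA of untreated cells was hybridised as biotinylated cRNA to 7 Affymetrix arrays, per the labels' protocols. The authors deposited 1 intensity per probe set and array on a linear scale, and the submitters' processing notes name RMA with no version; log2 was taken before any test. Of 19431 probe sets, 17335 had 1 symbol in the platform annotation. No detection calls were used here, and precision is limited by the small number of arrays. Array titles gave the groups.

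The 2 groups were compared in R 4.3.3 with limma 3.58.1, using two-sided moderated tests and Benjamini-Hochberg adjustment over 9999 genes (5 residual and 2.20 prior degrees of freedom), at an adjusted p of 0.05. The fit was tested on simulated data in which the noise of each array was independent. The arrays here were correlated within blocks (0.79 in the random block fit). That test therefore does not bear on how far the calls hold under such correlation. Probe sets of the same gene were tested in a second fit over all 17335.

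The members and lists were chosen with earlier results of these data known. Genes were named by a rule: families of up to 8 members whole, and in larger families up to 5 changed members by size with the one of highest mean, the 5 largest rises and falls, genes with probe sets of opposite direction, and up to 4 changed genes per partner list with the one of highest mean. The remaining members are named to account for all 82. Promoters to print were picked after values were seen.

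Alternatives covered normalization, centring, dim genes, priors, probe sets, weights, a fold of 1.2, moderation, blocks and arrays left out. Same-numbered arrays of the 2 groups had deviations that correlated at 0.124, -0.0902 and 0.106, so the numbers were not taken as pairs.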

Additional observations from a re-analysis of the deposited data

How the results depend on the processing

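Hspa4l, Dnajc22 and Dnajb14 kept their direction and their call under all alternatives run for them, the knockout pairs as random blocks included. Counts fell most with random blocks and in the test against a fold of 1.2. With the knockout pairs and the wild-type arrays as blocks, rises and falls were 2 and 1 over all members. By site they were 1 and 0 in the cytosol, 0 and 1 in the ER, and 0 and 0 in mitochondria. Against a fold of 1.2 they were 6 and 6 over all members, 4 and 2 in the cytosol, 1 and 2 in the ER, and 0 and 0 in mitochondria. The blocks count the correlation among their arrays, and the fold asks for a larger effect. With replicate number as a block, 32 of 82 members passed (39.0%, beside 38.1% of all genes), and the ER had 5 rises and mitochondria 1 fall. Without knockout replicates 3 and 4, 35 members rose, 10 of them in the ER, 11 cytosolic members fell, and the medians were 0.10 in the cytosol and -0.0775 in mitochondria; without replicates 1 and 2, 8 ER and 4 mitochondrial members fell and the cytosolic median was 0.11. These shares over all genes were 68.1% and 57.0%, against 43.1% with all arrays. Averaging the probe sets of each gene gave 0 rises and 1 fall in mitochondria, with medians of 0.11 in the cytosol and -0.0133 in mitochondria. Array weights gave 4 mitochondrial falls and a median of -0.0795, leaving out dim genes gave a mitochondrial median of -0.0219, the unmoderated test gave 1 rise each in the ER and in mitochondria, and the ER lumen alone had 1 rise. Leaving out each array in turn gave 12 to 23 rises and 11 to 15 falls over all members, 9 to 15 and 3 to 5 in the cytosol, 1 to 3 and 4 to 5 in the ER, and 1 to 2 and 1 to 3 in mitochondria, lowest for all rises without wild-type replicate 3 (12) and replicate 2 (13). The causes of these shifts were not tested beyond what each construction shows.

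Single genes turned sign as follows, most of them at differences that had not passed the test. With averaged probe sets the differences were Dnaja3 0.23, Dnajb12 0.17, Dnajb6 0.52, Dnajc11 -0.10, Dnajc3 -1.14, Dnajc8 0.035, Hspa4 -1.64, Hspe1 0.072, Hsbp1 -0.33 and Yme1l1 -0.25. Without knockout replicates 1 and 2 they were Bag5 -0.0026, Cct8 0.10, Dnajb11 -0.10, Dnajc1 -0.24, Dnajc17 0.083, Dnajc25 0.16, Dnajc4 -0.028, Fkbp1a 0.12, Hsp90b1 -0.11, Hspa1b 0.17, Hspb8 -0.0010, Hsph1 -0.15, Pdia5 -0.42 and Hsbp1 -0.094. Without replicates 3 and 4 they were Bag4 -0.060, Dnaja1 0.036, Hspa8 -0.053, Pdia3 0.033 and Pdia6 0.21. Array weights gave Hsp90b1 -0.062, Hspa8 -0.051 and Hspb8 -0.059, centring gave Dnaja1 0.0035, and the replicate block gave Dnaja1 0.012, Pdia3 0.0015 and Pdia6 0.054. Leaving out single arrays gave ranges that crossed 0, of -0.035 to 0.072 for Bag4, -0.10 to 0.017 for Cct8, -0.022 to 0.012 for Dnaja1, -0.012 to 0.25 for Dnajc1, -0.18 to 0.072 for Dnajc17, -0.0049 to 0.10 for Dnajc4, -0.13 to 0.0069 for Fkbp1a, -0.021 to 0.10 for Hsp90b1, -0.077 to 0.057 for Hspa8, -0.028 to 0.085 for Hspb8, -0.060 to 0.0015 for Pdia3, -0.073 to 0.28 for Pdia5 and -0.12 to 0.060 for Pdia6.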
